A study of Mus musculus with 15 samples.

Results

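Liver transcripts of 3 mice of the M line, with the transgene shut off by doxycycline (M-off), were compared with those of 3 littermates, which makes 6 of the 15 arrays of the series. The arrays were taken by their titles alone. Mice of the M line carry human alpha1-antitrypsin in its wild type form, under an inducible switch that acts in hepatocytes. M-off mice drank water with doxycycline at 40 µg per mL from conception until they were killed. The littermates are labelled wild type, without the transgene and without doxycycline. All were males aged 3 months, and each group held 3 biological replicates by its labels. The line that the littermates came from is not given in the labels, and the source label of the M-off arrays calls the mice wild type on doxycycline, which is read here as the M form of the transgene. The transgene, the line and doxycycline all differed between the groups, so their parts in any difference cannot be told apart. Expression of the human transgene was not analysed here. The other groups of the series, of 3 arrays each, are M-on (the M line without doxycycline), Z-off (the line with the Z form, on doxycycline) and Z-on (the Z line without it). They enter the fit and are shown beside some genes.

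Alpha1-antitrypsin is a protease inhibitor that hepatocytes secrete into blood. Doxycycline, a tetracycline antibiotic, is used to switch engineered promoters, and tetracyclines also bind the ribosomes of mitochondria. Cytochrome P450 enzymes of the Cyp2c family oxidise drugs, fatty acids and steroids in liver, and a large share of liver transcripts follow a daily rhythm set by the circadian clock.

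The arrays were checked before any comparison. Hepatocyte markers gave by far the highest summed signal on all 6 arrays, and Xist stayed between 13.7 and 69.4 while the Y-linked Eif2s3y lay between 194.6 and 437.6, as in males. Array M-off 1 stood apart in skeletal muscle genes: its summed signal over 9 muscle markers was 1582.1, against 326.4 on M-off 3, 57.3 on M-off 2 and 107.1 to 185.6 on the littermate arrays. Skeletal muscle actin (Acta1) read 478.4, 12.1 and 105.0 on the M-off arrays and 5.2 to 16.8 on littermates, and its call, at a log2 difference of 2.13, was lost without M-off 1 (1.10, adjusted p = 0.160, limma with Benjamini-Hochberg adjustment) and without M-off 3 or any 1 littermate (adjusted p = 0.0720 to 0.107). Muscle genes are therefore given no direction here. Median signal was 30.4 to 31.3 on M-off arrays and 42.3 to 44.9 on littermate arrays. Poly-A spike controls had medians of 51.7 to 69.3 and 40.75 to 49.55, and the actin 3′ to 5′ ratio was 1.66 to 2.01 and 2.34 to 2.46. These controls did not overlap between the groups, whereas hybridization controls did (511 to 603 and 488 to 523), and their part in the results below was not tested. Correlations of log2 signals over genes were 0.983 to 0.986 within M-off, 0.968 to 0.973 within littermates and 0.947 to 0.958 between the groups.

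More genes were lower than higher in M-off livers. Of 12393 genes tested with limma over all 15 arrays, 495 were called higher (3.99%) and 2779 lower (22.4%) in M-off than in littermates at a Benjamini-Hochberg adjusted p under 0.05. Here and below, changes are differences of log2(signal + 16), which understate the change of dim genes. The balance of the calls depended on the scaling of the arrays. Higher calls made up 15.1% of all calls on the deposited scale, 34.7% after quantile normalization (560 higher, 4.52% of genes, and 1055 lower, 8.51%) and 64.4% after each array was centred on its median (1803 higher, 14.5%, and 995 lower, 8.03%). The median change over all genes was -0.19, -0.05 and 0.14 on these scales. In the same direction on the deposited and the quantile scale, 324 genes were higher (2.61%) and 1045 lower (8.43%). The count of higher genes was 320, 298 and 280 without M-off 1, 2 and 3. The 3 M-on arrays entered the fit for the estimate of spread, and 2 of them carried female-type signals (Xist at 1149.2 and 226.0); without the M-on group 690 genes were higher and 2981 lower.

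The share of lower calls was highest among dim genes. Of 3043 genes with a mean signal of 16 to 50 on the 6 arrays, 44.9% were called lower and 2.17% higher. Among 879 genes with a mean signal of 500 to 1500 the order turned, with 4.89% lower and 9.56% higher. At a signal of 1500 and over, 14.4% of 473 genes were lower and 4.02% higher, and this class holds the abundant plasma protein transcripts.

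**Figure D1:**
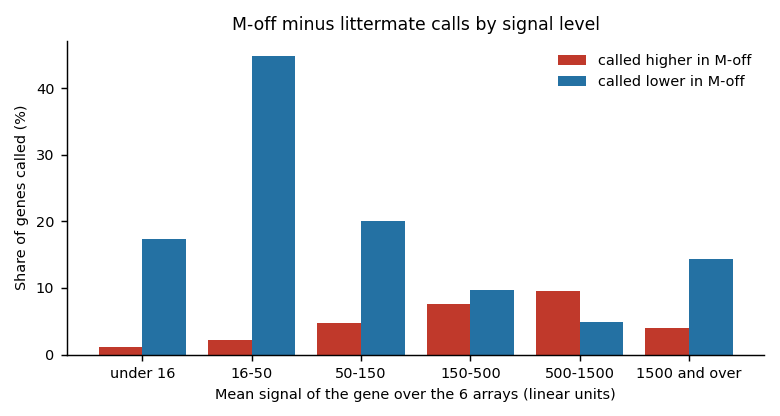
Share of genes called higher (red) or lower (blue) in M-off than in littermates, in percent, by the mean linear signal of the gene over the 6 arrays. The blue bar peaks at 44.9% for signals of 16 to 50, and the red bar is the taller one only between 500 and 1500.

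The largest rise was in Cyp2c37, a Cyp2c enzyme that oxidises arachidonic acid. Its signal was 1192.7, 1218.2 and 1287.2 on the M-off arrays and 15.4, 40.8 and 24.3 on the littermate arrays. The groups were far apart, by 45.9-fold in their means, for a log2 change of 4.91 (SE 1.10, adjusted p = 0.00565). Cyp2c55, another member of the family, read 389.3, 363.4 and 754.7 in M-off and 53, 56.3 and 28.5 in littermates, with a log2 change of 3.02 (SE 0.58, adjusted p = 0.00226). The lowest M-off array thus lay over 6 times above the highest littermate. Clec2d, a C-type lectin recognised by receptors of natural killer cells, read 877.4, 723.7 and 409.8 against 68.3, 106.5 and 64 (log2 change 2.80, SE 0.48, adjusted p = 0.00112). Tubb2a, a beta-tubulin, read 572.2, 632.5 and 834.7 against 84.2, 102.2 and 128.9 (2.52, SE 0.46, adjusted p = 0.00172). Rbbp9, a serine hydrolase that binds the retinoblastoma protein, read 142.1, 208.0 and 205.6 against 25.5, 36.7 and 11.1 (2.35, SE 0.24, adjusted p = 7.94e-05). In each of these 5 genes every M-off array lay above every littermate array, which the rule for naming them required. By the measure of arrays that do not overlap, 45.8% of all genes tested were set apart in one direction or the other.

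The other 7 of the 12 largest rises were smaller. The bile acid sensitive ion channel gene Asic5 rose by 2.21 and the phospholipid-binding annexin gene Anxa5 by 2.09. Evi5, which codes for a GTPase-activating protein, rose by 2.02, but its other probe set changed by only 0.13 (adjusted p = 0.887 over all probe sets). Cyp3a13, a P450 of the main drug-oxidising family, rose by 1.72, with a mean signal of 949 ± 57.3 in M-off and 279 ± 39.2 in littermates (SD, n = 3 each). The linker histone gene H1f2 rose by 1.62, on a further probe set by 1.70, and a dim probe set of the same gene fell by 0.67. Clpx, the ATPase subunit of the ClpXP protease of mitochondria, rose by 1.57, and Cyp2c50 by 1.54.

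The largest fall was also in the Cyp2c family. Cyp2c39, a retinoic acid hydroxylase, read 11.9, 1.0 and 2.5 on M-off arrays and 146.5, 313.0 and 338.1 on littermate arrays, a log2 change of -3.69 (SE 0.77, adjusted p = 0.00379). The M-off signals were near the floor of the array. Pctp, the phosphatidylcholine transfer protein gene, read 13, 150.2 and 17.5 against 348.0, 319.9 and 478.9 (-2.85, SE 0.71, adjusted p = 0.0103). Array M-off 2 was the high one of its group and still lay below all littermates. Aif1l, which codes for an actin-binding protein, read 6.9, 8.8 and 27.7 against 125.9, 195.9 and 157.3 (-2.57, SE 0.28, adjusted p = 9.9e-05). Usp2, a ubiquitin-specific protease gene under clock control, read 85.9, 43.7 and 54.4 against 506.1, 374.9 and 386.9 (-2.53, SE 0.43, adjusted p = 0.00105). Abhd1, a hydrolase gene, read 18.4, 21.8 and 188.3 against 257.9, 277.3 and 318.8 (-2.22, SE 0.51, adjusted p = 0.00633). The groups did not overlap in any of the 5, which the naming rule again required, though M-off 3 came near the littermates in Abhd1.

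Among the other 7 largest falls were 2 genes of lipid handling. Angptl4, which codes for an inhibitor of lipoprotein lipase, fell from 634 ± 92.8 in littermates to 134 ± 35.0 in M-off (log2 change -2.13). Lpin2, a phosphatidate phosphatase gene, fell by 1.87 and was lower on 2 further probe sets (-1.31 and -0.82). The clock gene Per1 fell by 1.94, the membrane-cytoskeleton linker gene Ezr by 1.93, and the inactive rhomboid gene Rhbdf1 by 1.88. Ezr had a dim second probe set that changed by 0.04. Snrnp25, a gene of the minor spliceosome, fell by 2.22 and the neutrophil chemokine gene Cxcl1 by 1.95, and these were the only 2 of the 24 largest changes whose call did not hold with each of the 6 arrays left out. Without littermate 1 the Snrnp25 change was -1.95 (adjusted p = 0.0727), and it also missed the threshold without littermate 3, M-off 2 or M-off 3 (adjusted p = 0.0536, 0.0613 and 0.0576). Without littermate 3 the Cxcl1 change was -1.47 (adjusted p = 0.103), and it missed without littermate 2 or any 1 of the M-off arrays as well (adjusted p = 0.0531 to 0.0862). Cxcl1 read 153.8 on littermate 1 and 850.7 and 1024.0 on the other littermate arrays.

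**Figure D2:**
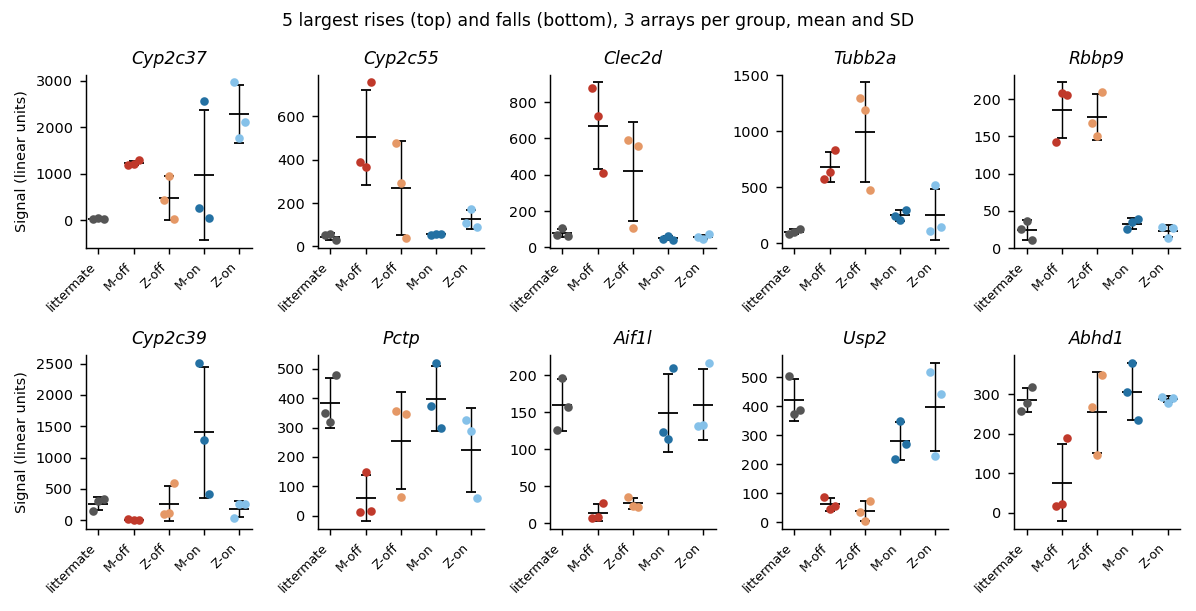
Linear signal of the 5 genes with the largest rises (top) and falls (bottom), 1 point per array in each of the 5 groups, with mean and SD over 3 arrays. For each gene the 3 M-off points lie beyond the 3 littermate points, as the rule that picked the genes required. The Z-off, M-on and Z-on groups are shown beside them.

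The Cyp2c family split in both directions. Of 11 members measured, 3 were higher, 3 lower and 5 not called, beside 3.99% and 22.4% over all genes. Cyp2c50 rose from 1762 ± 267 in littermates to 5106 ± 239 in M-off (adjusted p = 7.16e-04). Cyp2c23 fell by 0.92 (adjusted p = 0.00506), and Cyp2c29, one of the brightest, fell by 0.53 on the deposited scale but was not called after quantile normalization (-0.21, adjusted p = 0.394) or without M-off 1, M-off 2, littermate 2 or littermate 3 (adjusted p = 0.0617 to 0.112). Cyp2c54 and Cyp2c68 differed by 0.61 and 0.75 without passing the test (adjusted p = 0.115 and 0.0874). Both were called after median centring (adjusted p = 0.0236 and 0.0148), and Cyp2c68 also with array weights, with the M-off and littermate arrays alone and without the M-on arrays (adjusted p = 0.0423, 0.0157 and 0.0107). Members of the family are close in sequence, and probes of one may bind transcripts of another, so the split of signal among them is uncertain. The promoters of 2 of the genes that rose and of the gene with the largest fall are printed to show how close these promoters are. They are those of Cyp2c37 (chr19:39992174-39992473), Cyp2c50 (chr19:40089429-40089728) and Cyp2c39 (chr19:39510572-39510871), from RefSeq, build GRCm38.p6, plus strand. Each runs from 250 bases before to 50 after the start of the gene. No letters are marked.
Cyp2c37: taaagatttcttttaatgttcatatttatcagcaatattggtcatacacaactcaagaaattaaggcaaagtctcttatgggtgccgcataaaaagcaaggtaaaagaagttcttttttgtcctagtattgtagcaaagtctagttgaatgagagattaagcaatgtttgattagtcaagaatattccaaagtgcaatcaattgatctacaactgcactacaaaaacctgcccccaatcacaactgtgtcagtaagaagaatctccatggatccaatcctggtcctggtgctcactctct
Cyp2c50: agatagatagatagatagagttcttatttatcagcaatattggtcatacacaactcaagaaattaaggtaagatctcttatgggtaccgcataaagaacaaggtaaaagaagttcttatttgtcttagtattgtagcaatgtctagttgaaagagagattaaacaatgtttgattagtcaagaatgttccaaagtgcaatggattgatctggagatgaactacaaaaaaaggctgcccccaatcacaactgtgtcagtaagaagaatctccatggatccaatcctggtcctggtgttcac
Cyp2c39: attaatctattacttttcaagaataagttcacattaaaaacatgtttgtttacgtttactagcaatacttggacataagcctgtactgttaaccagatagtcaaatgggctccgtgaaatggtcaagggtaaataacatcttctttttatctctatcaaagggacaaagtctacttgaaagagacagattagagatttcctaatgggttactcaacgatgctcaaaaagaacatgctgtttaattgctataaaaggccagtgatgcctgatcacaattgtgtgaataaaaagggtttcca
In a global alignment Cyp2c37 and Cyp2c50 were identical at 86.6% of positions, and Cyp2c37 and the printed Cyp2c39 window at 53.3%. RefSeq gives a second Cyp2c39 window, which was 61.5% identical to that of Cyp2c37. The window of Cyp2c55, which also rose, was 56.8% identical to it, so identity did not separate genes that rose from the gene that fell. These are descriptions of promoter sequence, which do not show how alike the transcripts or the probes are. Their part in the expression values was not tested.

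Several clock genes differed in M-off livers. Of 28 measured genes of the clock and its outputs, 9 were lower (32.1%, beside 22.4% over all genes) and 2 higher (7.14%, beside 3.99%). Their median was -0.37, against -0.19 over all genes. After quantile normalization 7 were lower and 2 higher, beside 8.51% and 4.52% over all genes. By role on the deposited scale, 2 of 4 activators were higher, while 2 of 4 output transcription factors and 5 of 11 other outputs (45.5%) were lower. Of 9 repressors 2 were lower (22.2%), a share near that of all genes. Per1, a repressor that feeds back on the clock, read 14.5, 21.5 and 15.9 on M-off and 154.5, 100.5 and 88.5 on littermate arrays (adjusted p = 3.41e-04). Wee1, a cell cycle kinase gene driven by the clock, read 57.0, 30.9 and 42.3 against 169.7, 139.8 and 167.3 (-1.58, adjusted p = 0.00131). Tef, an output transcription factor, read 364.0, 333.0 and 279.4 against 874.7, 770.0 and 818.9 (-1.30, adjusted p = 0.00346). In all 3 the groups lay apart. Rgs16, a regulator of G protein signalling whose transcript cycles in liver, read 1.0, 5.0 and 2.8 against 35.1, 57.5 and 114.0 (-2.06, adjusted p = 0.00402), and it was lower on its 2 other probe sets too (-2.49 and -2.07). Upp2, uridine phosphorylase, fell by 1.55. Clock and Arntl, the 2 genes of the activating pair, were higher by 1.35 and 1.13 (adjusted p = 0.00994 and 0.0345). The other Clock probe set changed by -0.08 (adjusted p = 0.907 over all probe sets), and the Clock call was lost with an added constant of 1 (adjusted p = 0.0552). Arntl was not called without M-off 1, M-off 2, M-off 3 or littermate 2 (adjusted p = 0.104, 0.0844, 0.0528 and 0.138). Dbp, an output factor with one of the widest daily swings in liver, fell from 1505 to 426 in mean signal (-1.78, adjusted p = 0.0426), but it missed the threshold after quantile normalization (adjusted p = 0.0517) and without any 1 of the 6 arrays (adjusted p = 0.0798 to 0.108). Per2, a repressor like Per1, differed by 0.13 (adjusted p = 0.774). The hour at which livers were taken is not given in the labels.

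**Figure D3:**
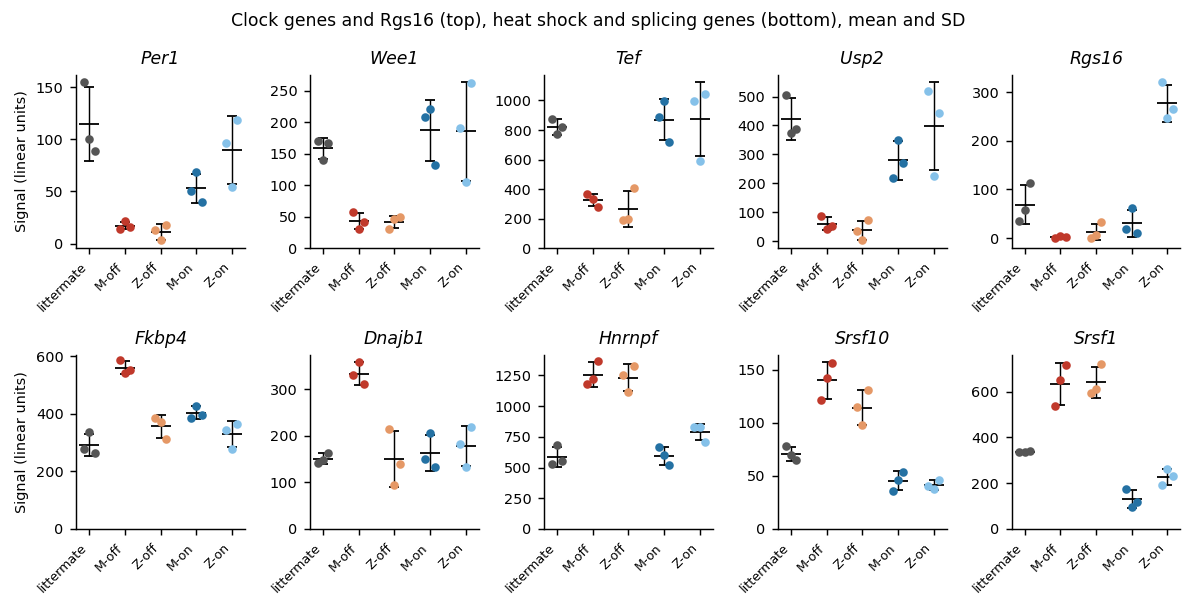
Linear signal of Per1, Wee1, Tef, Usp2 and Rgs16 (top) and of the heat shock genes Fkbp4 and Dnajb1 and the splicing genes Hnrnpf, Srsf10 and Srsf1 (bottom), 1 point per array with mean and SD over 3 arrays. M-off points lie below the littermate points in the top row and above them in the bottom row.

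The promoters of Per1 (chr11:69098699-69098998) and Tef (chr15:81802423-81802722), plus strand of GRCm38.p6 from RefSeq, are shown because both fell and both hold the letters CACGTG, for which they and their windows were picked. This is the E-box that the pair of Clock and Arntl products is known to bind. Capitals mark it. It is a palindrome, so both strands were covered by 1 search.
Per1: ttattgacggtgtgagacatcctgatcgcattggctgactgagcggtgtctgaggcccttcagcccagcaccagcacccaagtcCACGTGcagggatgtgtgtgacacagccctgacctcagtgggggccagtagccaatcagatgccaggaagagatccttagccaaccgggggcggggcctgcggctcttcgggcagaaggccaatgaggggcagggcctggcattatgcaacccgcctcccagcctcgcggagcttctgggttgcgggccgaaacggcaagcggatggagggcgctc
Tef: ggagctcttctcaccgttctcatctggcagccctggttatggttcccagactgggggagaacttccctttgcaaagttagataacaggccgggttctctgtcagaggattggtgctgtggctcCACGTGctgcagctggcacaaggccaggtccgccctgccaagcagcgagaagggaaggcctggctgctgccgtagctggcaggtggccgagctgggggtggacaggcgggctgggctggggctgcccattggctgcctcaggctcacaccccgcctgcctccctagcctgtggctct
CACGTG stood in 7.15% of all 32851 promoter windows, in 10.8% of 9887 tested genes with a window, in 7 of 25 clock and output genes with a window and in 3 of the 10 of them that were called. A second Per1 window held none, nor did those of Per3, Usp2, Dbp, Rgs16, Clock and Arntl. A match is a description of these letters and not of a bound site.

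Several cytosolic chaperone and splicing genes rose. Of 35 heat shock genes 9 were higher (25.7%, beside 3.99% over all genes) and 2 lower (5.71%, beside 22.4%), with a median of 0.29. After quantile normalization 6 were higher and 2 lower, beside 4.52% and 8.51% over all genes. Fkbp4, a cochaperone of Hsp90 that acts on steroid receptors, read 586.5, 542.9 and 552.0 in M-off and 279.1, 336.6 and 263.5 in littermates (0.91, adjusted p = 5.5e-04). Dnajb1, a J-domain cochaperone of Hsp70, rose from 151 ± 10.8 to 333 ± 24 (1.06, adjusted p = 0.00568), and its second probe set rose by 0.80. The Hsp70-family gene Hspa14 rose by 0.86 and the cochaperone gene Bag3 by 0.98 (adjusted p = 0.00878). Hspa1b, the inducible Hsp70, rose by 1.83 (adjusted p = 0.0221), but not after quantile normalization (adjusted p = 0.0716) or without M-off 1, M-off 2 or littermate 1 (adjusted p = 0.0696, 0.0678 and 0.0892). It has a near-identical copy, Hspa1a, so its signal may be shared. Bag2 fell by 0.67, which was lost after quantile normalization (adjusted p = 0.191).

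Of 44 splicing and RNA processing genes 10 were higher (22.7%, beside 3.99% over all genes) and 3 lower (6.82%, beside 22.4%), with a median of 0.26. After quantile normalization 8 were higher and 1 lower, beside 4.52% and 8.51% over all genes. The higher ones on the deposited scale were 5 of 17 SR proteins (29.4%) and 5 of 27 hnRNPs and others (18.5%). Hnrnpf, which codes for an RNA-binding protein of spliceosomal complexes, read 1176.3, 1224.9 and 1370.4 in M-off and 532.7, 682.6 and 551.3 in littermates (1.08, adjusted p = 2.32e-04). The gene has 3 more probe sets, with changes of 0.10 to 0.38 that were not called, so the rise rested on 1 of 4. The SR protein gene Srsf1 rose from 338 ± 2.54 to 634 ± 92.1, and its other probe sets changed by 0.03, 0.22, 0.58, 0.72 and 0.79, with only the last called. Srsf10 rose by 0.84, with 0.51, 0.42 and -0.20 on its other probe sets, and Tra2a, a splicing regulator related to SR proteins, by 0.96. Srsf2 rose by 1.33 (adjusted p = 0.00592) and by 0.87 on a second probe set, but changed by 0.01 and -0.51 on its remaining ones. Cirbp, the cold-inducible RNA-binding protein gene, fell by 0.67 and was not called after quantile normalization (adjusted p = 0.234).

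Of 53 genes of folding in the endoplasmic reticulum (ER), 4 were higher (7.55%, beside 3.99% over all genes) and 0 lower (beside 22.4%), with a median of 0.05. The higher ones were 3 of 14 chaperones and 1 of 21 degradation or translocation genes. After quantile normalization 1 was higher, and after median centring 12, beside 4.52% and 14.5% of all genes on these scales. The J-domain gene Dnajc1 was called on the deposited and quantile scales (0.92, adjusted p = 0.00131 on the former), but its other probe sets, both dimmer, changed by 0.03 and 0.13. None of the 7 sensors and transcription factors of the unfolded protein response was called on its brightest probe set by limma, on the deposited scale or after quantile normalization. Hspa5, the main ER chaperone, differed by 0.33 (adjusted p = 0.433) and Xbp1 by -0.20 (adjusted p = 0.385). A dimmer Xbp1 probe set was lower by 0.88 (adjusted p = 0.00211 over all probe sets), and the remaining ones changed by 0.07 and 0.17. Ddit3, listed among the ATF4-type factors, differed by 0.42 (adjusted p = 0.0874), and was called after median centring (0.75, adjusted p = 0.0115) and with the M-off and littermate arrays alone (adjusted p = 0.0471). Dnajb9, an ER cochaperone, rose by 0.85 (adjusted p = 0.0435) but missed the threshold after quantile normalization (adjusted p = 0.115) and without M-off 1, 2 or 3 or littermate 1 or 3 (adjusted p = 0.0520 to 0.176). Of 37 proteasome genes 5 were higher (13.5%, beside 3.99% over all genes) and 1 lower (2.7%, beside 22.4%). After quantile normalization 0 were higher and 1 lower, beside 4.52% and 8.51% over all genes.

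Genes of mitochondria showed few calls on the deposited scale. Of 80 genes of the mitochondrial ribosome and its translation factors 4 were higher and 7 lower (median -0.03), and of 72 respiratory chain genes 2 were higher and 4 lower (median -0.01). These shares of lower calls, 8.75% and 5.56%, lay under the 22.4% over all genes, and both lists are bright, with median signals of 293 and 1757. Mrpl41 and Mrpl2 of the large subunit fell by 0.73 and 0.53 (adjusted p = 0.00546 and 0.0138), and a second bright probe set of Mrpl41 changed by -0.29 without a call. Ndufb6 of complex I rose from 970 ± 126 to 1754 ± 328 (0.84, adjusted p = 0.00930), and its second probe set rose by 0.54. Mrps23 was lower by 0.56 on the probe set used and higher by 0.89 on another, so it has no settled direction. In the mitochondrial stress list, Clpx rose as above, while 6 of 18 ATF4 targets were lower (33.3%, beside 22.4% over all genes), and 1 was so after quantile normalization or median centring. These targets are dim, with a median signal of 42.6, and 44.9% of all genes at signals of 16 to 50 were lower. The stress-induced gene Sesn2 fell by 1.28, with -0.34 and no call on its other probe set, and Trib3 and Slc7a11, by 1.07 and 0.74 on the deposited scale, were not called after quantile normalization (adjusted p = 0.113 and 0.131). Median centring reversed the balance in both large lists, as it did over all genes (14.5% higher and 8.03% lower). On that scale 19 of 80 mitochondrial ribosome and 12 of 72 respiratory chain genes were higher and 0 lower in each.

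Several genes of cholesterol synthesis and its regulation rose. Of 23 cholesterol synthesis and uptake genes 4 were higher (17.4%, beside 3.99% over all genes) and 0 lower (beside 22.4%), with a median of 0.41. The higher ones were 2 of 8 genes from mevalonate to squalene, 1 of 10 from squalene to cholesterol and 1 of 3 regulators. After quantile normalization 2 of the 23 were higher and 0 lower, beside 4.52% and 8.51% over all genes. Pmvk, phosphomevalonate kinase, read 261.7, 214.9 and 210.8 against 73.4, 138.7 and 115.7 (1.00, adjusted p = 0.00147), and Cyp51, a sterol demethylase, rose by 0.81 (adjusted p = 0.0127). Both held after quantile normalization, and the calls of Insig2 and Fdft1 did not (adjusted p = 0.118 and 0.125). Insig2 also missed without M-off 2, M-off 3, littermate 1 or littermate 2 (adjusted p = 0.0716 to 0.144), though 2 further probe sets of it rose by 1.59 and 1.19. Fdft1 missed without any 1 M-off array, littermate 1 or littermate 2 (adjusted p = 0.0540 to 0.165). Of 43 genes of fatty acid oxidation and ketogenesis 10 were lower (23.3%, close to the 22.4% of all genes) and 1 higher (2.33%, beside 3.99%). After quantile normalization 5 were lower and 0 higher, beside 8.51% and 4.52% over all genes. Ppargc1b, a coactivator of oxidative genes, fell from 159 ± 37.8 to 64.3 ± 9.55 (adjusted p = 0.00174), and the peroxisomal thiolase gene Acaa1a fell by 1.05, with -0.31 and no call on its other probe set. Acaa2, the mitochondrial thiolase, fell by 1.44 on the probe set used but changed by -0.02 and 0.07 on its 2 others, which read 2285 to 2560 in M-off. Lpin1, a phosphatidate phosphatase like Lpin2, fell by 1.64 and by 2.44 on a second probe set. Elovl3, a fatty acid elongase, rose from 423 ± 121 to 2236 ± 547 (2.37, adjusted p = 0.0226), but this call ended under quantile normalization (adjusted p = 0.0545) and without M-off 2 or 3 or littermate 1 or 2 (adjusted p = 0.0536 to 0.0746).

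Glucose, drug and bile genes gave single strong changes. Pck1, the key enzyme of gluconeogenesis, read 1536.4, 1926.0 and 1737.6 in M-off and 3476.0, 3514.1 and 4168.4 in littermates (-1.10, adjusted p = 8.04e-04). The insulin receptor gene Insr fell by 1.30, from 43.7 to 8.57 in mean signal, on a dim probe set whose partner changed by -0.04. Of 33 glucose genes 4 were lower (12.1%, under the 22.4% of all genes) and 0 higher. Nr1i2, the nuclear receptor PXR that senses drugs, fell from 94.7 ± 36.1 to 33.9 ± 3.67 (-1.10, adjusted p = 0.00377), and its other probe set changed by -0.38 without a call. Of 50 conjugation and NRF2 target genes 4 were higher (8%, beside 3.99% over all genes) and 1 lower (2%, beside 22.4%). Among the higher ones, Abcc2, a canalicular exporter of conjugates, rose from 105 ± 8.73 to 333 ± 21.8 (1.53, adjusted p = 8.73e-04), and the glutathione transferase gene Gsta2 from 482 ± 235 to 1257 ± 265 (1.45, adjusted p = 0.00286). Abcg5 and Abcg8, which together form the sterol exporter into bile, fell by 0.99 and 0.70 (adjusted p = 0.0180 for each), and both missed the threshold without littermate 1 (adjusted p = 0.0751 and 0.0686), Abcg5 also without M-off 3 (adjusted p = 0.0609), and Abcg8 without M-off 1 or littermate 3 (adjusted p = 0.0619 and 0.0658).

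**Figure D4:**
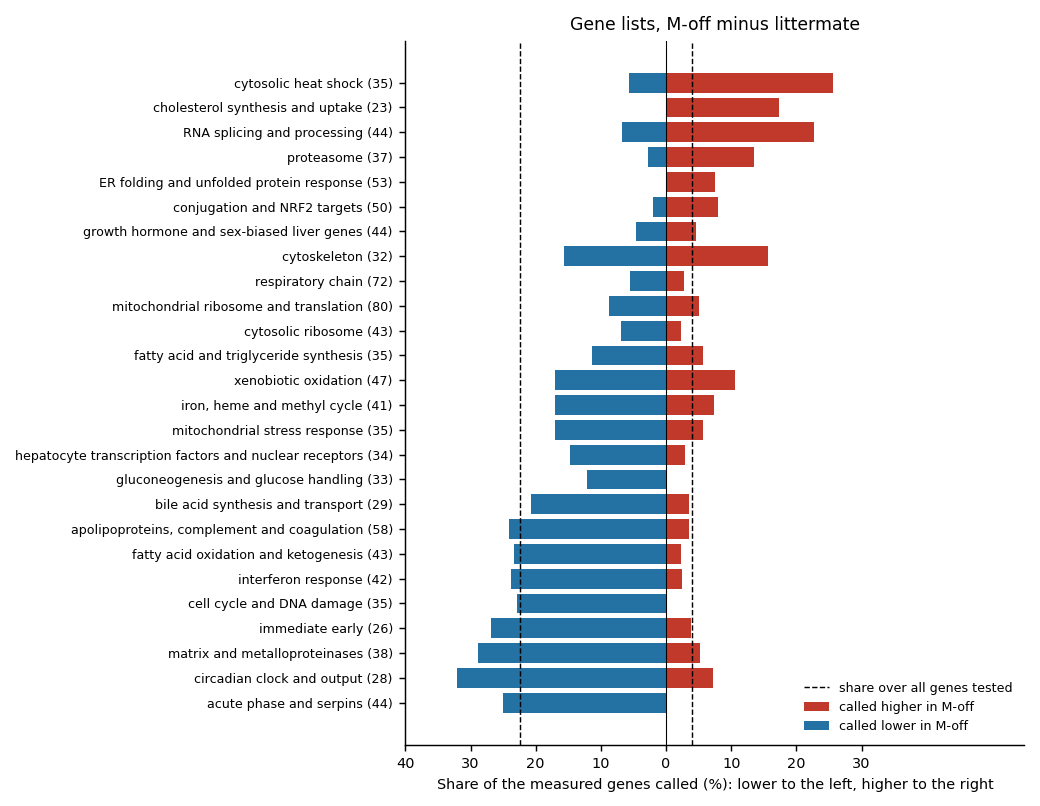
Share of the measured genes of 26 lists called higher (red, right) or lower (blue, left) in M-off than in littermates, in percent, with the number measured in brackets. Dashed lines mark 3.99% higher and 22.4% lower over all genes tested; heat shock and splicing lists reach 25.7% and 22.7% higher, and the clock list 32.1% lower.

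Among abundant plasma protein genes the calls depended on the scaling. Of 44 acute phase and serpin genes 11 were lower (25%, close to the 22.4% of all genes) and 0 higher (beside 3.99%). After quantile normalization only 1 was lower and 1 higher, beside 8.51% and 4.52% over all genes. The mouse counterparts of the transgene, Serpina1b and Serpina1c, read 8031 ± 445 and 10806 ± 595 in M-off and 13081 ± 1846 and 16958 ± 2744 in littermates, changes of -0.70 and -0.64 (adjusted p = 0.00271 and 0.00363) that became -0.22 and -0.00 after quantile normalization. A probe set shared by Serpina1a and Serpina1d read 7000.6, 7779.6 and 8399.6 against 7342.8, 7694.2 and 7946.0, so these groups overlapped. A further one, shared by Serpina1b, Serpina1c and Serpina1e, read 2336.2, 2415.6 and 2699.9 in M-off and 1783.6, 1999.6 and 1996.7 in littermates, higher in M-off without overlap. The copies therefore have no settled direction. The apolipoprotein genes Apoa1 and Apoa2 fell by 0.68 and 0.70 and were near 0 after quantile normalization (-0.04 and -0.06). Hc, complement component C5, read 1002.7, 976.4 and 952.2 against 3742.5, 2586.3 and 3202.3 (-1.67, adjusted p = 0.0127) and stayed lower after quantile normalization (-1.62, adjusted p = 0.0350).

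Among interferon response genes the share of lower calls was near that of all genes. Of 42 measured, 10 were lower (23.8%, beside 22.4% over all genes) and 1 higher (2.38%, beside 3.99%), with a median of -0.40. After quantile normalization 5 were lower and 2 higher, beside 8.51% and 4.52% over all genes. The antiviral genes Dhx58 and Oas2 fell by 1.33 and 1.56 (adjusted p = 1.09e-04 and 0.00153), from mean signals of 53.7 and 60.0 to 11.8 and 9.83. The 2 other Dhx58 probe sets, both dim, changed by 0.27 and 0.03. Bst2, an antiviral membrane protein gene, was the higher one, at 736 in M-off and 369 in littermates (0.96, adjusted p = 0.00348). Of 35 cell cycle and DNA damage genes 8 were lower (22.9%, near the 22.4% of all genes) and 0 higher (beside 3.99%). After quantile normalization 2 were lower and 0 higher, beside 8.51% and 4.52% over all genes. Rrm2, a subunit of ribonucleotide reductase, fell from 88.3 ± 7.50 to 22.4 ± 6.12. Col6a2, a collagen VI chain, fell from 102 ± 13.5 to 31.6 ± 5.47 and was lower on its second probe set as well (-1.31 and -1.45).

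Among immune cell markers, those of neutrophils and of B and plasma cells had the highest shares of lower calls. On the deposited scale 6 of 9 neutrophil, 5 of 8 B and plasma cell, 4 of 13 T and NK cell and 6 of 18 Kupffer cell and macrophage markers were lower and 0 were higher by limma on this scale, beside 22.4% lower over all genes and 44.9% at signals of 16 to 50, where the medians of the neutrophil and B cell lists lie (25.9 and 23.8). After quantile normalization 3, 3, 1 and 1 of them were lower, beside 8.51% of all genes. Summed neutrophil marker signal was 102 to 185 on M-off and 276 to 392.3 on littermate arrays, and that of B and plasma cell markers 448 to 470 and 723 to 989. The fall was not particular to these: sums of hepatocyte, T and NK cell, Kupffer cell, antigen-presenting cell and adipocyte markers were also lower without overlap. For hepatocytes they were 70855 to 79061 and 102944 to 127448. Of 9 antigen-presenting cell markers 3 were lower (33.3%), and 0 after quantile normalization. The myeloid receptor gene Csf1r fell from 885 to 460 (adjusted p = 0.00538), the neutrophil enzyme gene Mpo from 43.9 to 5.43 and the B cell receptor gene Cd79a from 45.4 to 9.40. Summed stellate cell markers were not lower, at 2210 to 2363 in M-off and 1962 to 2192 in littermates. Of 9 hepatocyte markers, 7 were lower on the deposited scale and 0 after quantile normalization. In bulk tissue fewer cells of a type and less RNA per cell cannot be told apart, and the part of these markers in the falls of other dim genes was not tested.

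**Figure D5:**
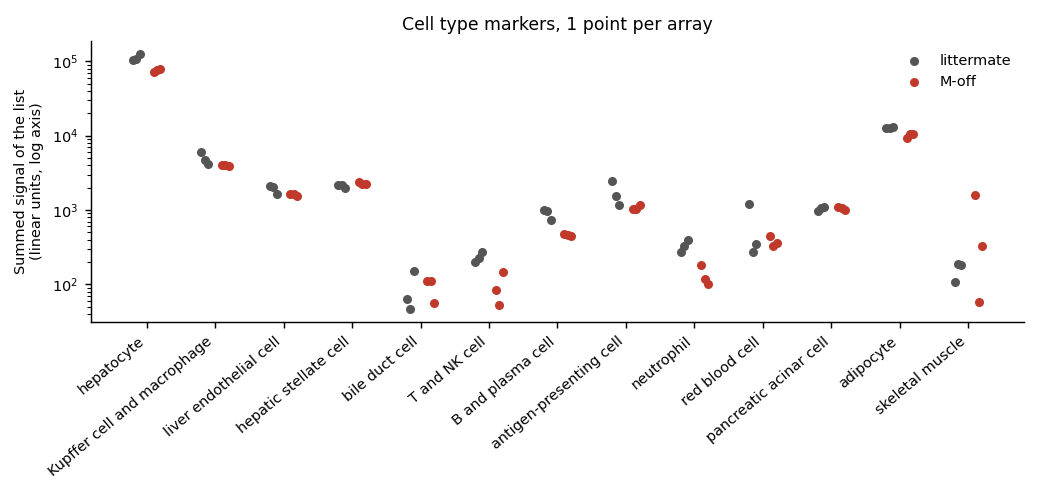
Summed linear signal of the markers of 13 cell types (log axis), 1 point per array, for M-off (red) and littermates (grey). Hepatocyte markers are the brightest at 70855 to 127448, and M-off 1 reaches 1582.1 in skeletal muscle. M-off points lie below littermate points for neutrophil, B cell, T and NK cell, hepatocyte, Kupffer cell, antigen-presenting cell and adipocyte markers.

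Mice of the Z line on the same doxycycline regimen (Z-off) were set beside M-off, against the same littermate arrays. Because the littermates are shared, the changes of both lines are given side by side and their likeness is not counted. Rbbp9 changed by 2.35 in M-off and 2.29 in Z-off, Tubb2a by 2.52 and 2.95, Usp2 by -2.53 and -3.26, and Wee1 by -1.58 and -1.61. Cyp2c37 changed by 4.91 and 2.72 (adjusted p = 0.0868 in Z-off), Cyp2c39 by -3.69 and -0.38 and Cyp3a13 by 1.72 and -0.22, but the direct difference between M-off and Z-off missed the threshold in these 3 genes (adjusted p = 0.566, 0.108 and 0.109). Dnajb1 changed by 1.06 in M-off and -0.07 in Z-off, again without a called difference (adjusted p = 0.0968). Over all genes 4.09% were called higher and 20.3% lower in Z-off than in littermates, and of the 28 clock genes 3 were higher and 13 lower there.

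The direct test of M-off against Z-off, which leaves the littermates out of the difference, called 16 genes, 6 higher (0.0484%) and 10 lower (0.0807%) in M-off (0.129% of all genes in all; 1169 genes had an unadjusted p under 0.05). Pik3c2g, a lipid kinase gene of liver, read 14.5, 19.1 and 16.8 in M-off, 99.8, 120.0 and 116.2 in Z-off and 67.3, 86.8 and 71.7 in littermates (M-off minus Z-off -1.96, adjusted p = 1.19e-04). Of these groups M-off alone was low, below littermates by 1.47, and M-on mice, of the same line without doxycycline, were also low, by 1.44. Asic5 was higher in M-off than in Z-off by 1.89 (adjusted p = 0.0147), with M-on again on the side of M-off (1.19 above littermates). The M-on arrays also differed from M-off and littermate arrays in array controls, as given in the next paragraph. Pck1 was lower by 1.17 (adjusted p = 0.0251) and Hsd17b6, an enzyme of steroid and retinol metabolism, lower by 2.16 (adjusted p = 0.0169). Ccng2, an atypical cyclin gene, stood at 59.8 ± 9.36 in M-off and 60.8 ± 10.8 in littermates on the probe set used, and at 183 ± 37.6 in Z-off. Its second probe set was lower in M-off than in littermates (13.3 and 37.4, log2 change -0.86, adjusted p = 0.0109 over all probe sets). The count of 16 was 6 without M-off 1, 6 without Z-off 2, 7 without M-off 3, 10 without Z-off 1 and 52 without Z-off 3. Ccng2, Hgfac and Pik3c2g were the 3 genes called with each of the 6 arrays of both groups left out.

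Levels in M-on mice, which differ from M-off in doxycycline and in expression of the transgene, are given as description for some of the largest changes. The M-on arrays differed in controls too. Their poly-A medians were 3.8 to 5.6, beside 51.7 to 69.3 on M-off and 40.75 to 49.55 on littermate arrays. Hybridization controls read 251 to 288 on M-on arrays, beside 511 to 603 and 488 to 523. Some M-on arrays also carried female-type signals, as given above. The parts of these differences in the levels below were not tested. Mean Clec2d signal was 50.8 ± 11.4 for M-on beside 670 ± 238 for M-off and 79.6 ± 23.4 for littermates. Rbbp9 stood at 33.1 ± 7.13 under M-on. Aif1l averaged 149 ± 52.5 (M-on), 14.5 ± 11.5 (M-off) and 160 ± 35.1 (littermates). In these 3 genes M-on arrays lay near the littermates and apart from M-off. Anxa5 and H1f2 did not follow this order: M-on arrays averaged 302 ± 83.4 and 679 ± 259, close to or above M-off (183 ± 26.4 and 593 ± 39.7), while littermates stood at 32 ± 12.9 and 183 ± 29.4. Cyp2c37 and Cyp2c39, the largest rise and fall, varied widely among M-on arrays, at 963 ± 1396 and 1404 ± 1048.

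In the main fit the p-values rest on a spread within groups that was pooled over all groups, M-on included. They do not measure the spread of the M-off and littermate mice alone. Each group held 3 mice, and the number of arrays limits the precision of the p-values. Of 12 further probe sets of the 24 genes with the largest changes, 10 moved in the same direction, 6 of them called, and 1 was called in the opposite direction.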

How the data were processed

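Livers were profiled on 15 Affymetrix arrays, 3 for each of 5 groups. The authors deposited 1 table of intensity values per probe set, made with RMA per the submitters' processing notes, whose version, scaling and genome build are not given in the sources used here. The deposited values were linear, from 0 to 22995.4, with a mean of 150.06 to 150.08 on each array after the top and bottom 2% were trimmed. Array medians ran from 30.4 to 54.9, whereas RMA run over all arrays together would leave their distributions closely alike. The values thus do not look like such a run, and the step that scaled them is not known. Of 22690 probe sets, 20380 had 1 gene symbol, 691 several, 1555 none and 64 were controls. Each of 12393 genes was represented by its brightest named probe set over all arrays, and log2(intensity + 16) was fitted with limma 3.58.1 in R 4.3.3 (lmFit, eBayes, 5 groups, Benjamini-Hochberg adjustment, threshold 0.05). All adjusted p-values come from this fit or a stated alternative of it. ± gives the SD of 3 arrays.

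The members and gene lists were chosen with earlier results of these data known. Named genes were the 12 largest rises and falls among called genes with the same direction after quantile normalization, arrays that did not overlap and a mean signal of at least 100 in the higher group, and up to 4 genes per list by smallest adjusted p. Acta1, Arntl, Bag3, Bst2, Cd79a, Clock, Csf1r, Cyp2c23, Cyp2c29, Cyp2c54, Cyp2c68, Dbp, Hc, Hspa1b, Mpo, Per2, Srsf2 and Upp2 were named after their values were seen. Lists are described by counts, without a test of the list. In data simulated for M-off against littermates over 12393 genes, 67% of genes changed by 1 log2 unit and 26% of those changed by 0.585 were recovered. The simulation changed 100 and 50 genes by these sizes, far fewer than the 3274 called in the data. These rates therefore need not hold for the comparison itself. Alternatives were other scalings, constants of 1 and 64, a filter on dim genes, all probe sets, array weights, a trended robust fit, the groups alone, no M-on arrays, a replicate block and each array left out. Promoters came from RefSeq (GRCm38.p6) and were aligned with Biopython 1.88.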

Additional observations from a re-analysis of the deposited data

Results flagged for a closer look

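The change from littermates differed between M-off and Z-off in 16 genes by limma's direct test of M-off minus Z-off, and each is given by that log2 difference. Of the 6 genes higher in M-off, Apcs, the serum amyloid P component gene, differed by 2.01, with 682 ± 95.1 in Z-off and 2781 ± 106 in M-off. Littermates spread from 1825.0 to 3949.5 in this gene. Asic5 differed by 1.89, Corin, a protease gene, by 1.31, and Lactb, a serine protease-like protein of mitochondria, by 1.30. Tmem41b, a lipid scramblase gene of the ER, differed by 1.00 and Hgfac, the activator of hepatocyte growth factor, by 0.88.

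In the 10 genes lower in M-off the size ran from -0.84 to -2.66. The very low density lipoprotein receptor gene Vldlr differed by -2.66, with M-off at 9.6 to 9.8 on all 3 arrays, Z-off at 76.6 to 220.6 and littermates at 22.2 to 54.5. Hsd17b6 differed by -2.16 and Cdh1, the E-cadherin gene, by -2.07, with mean Cdh1 signals of 521 ± 72.8 for Z-off, 111 ± 2.44 for M-off and 153 ± 26.5 for littermates. Pik3c2g differed by -1.96, Ccng2 by -1.38, Pck1 by -1.17 and Cirbp by -1.09. The antiproliferative gene Btg1 differed by -0.93, the nucleotide sugar transporter gene Slc35a5 by -0.89 and the metalloproteinase gene Mmp24 by -0.84. Against littermates, other probe sets of Tmem41b changed by -0.50 to 0.60, the 4 others of Slc35a5 by -0.87 to -0.52, and the second of Btg1 by 0.64. Of the 16 genes, 8 were still called after quantile normalization.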

How the results depend on the processing

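None of the 118 named genes called between M-off and littermates, nor of the 16 that differed between M-off and Z-off, turned its direction under any alternative run. Uncalled values did turn: Xbp1 went from -0.20 to 0.12 with median centring. The count of higher genes (495) rose to 933 with all probe sets and 1803 with median centring. The count of lower genes (2779) was 1462 above the 40th percentile of signal, 995 with median centring and 1055 after quantile normalization. With 1 array left out, 280 to 391 genes were higher and 2033 to 2452 lower. The 16 genes that differed between M-off and Z-off became 229 with array weights, 27 with a constant of 1, 26 with a trended robust fit, 31 with those groups alone and 28 without M-on arrays, and 6 to 52 with 1 array left out. The causes were not tested, except that the filter and all probe sets change how many features enter. Same-numbered M-off and littermate arrays correlated by -0.0072 to 0.0014 in their deviations. This gave no sign that the numbers pair the samples, but 3 such pairs cannot exclude it. With the replicate number as a block 435 genes were higher and 2612 lower, and 12 differed between M-off and Z-off. Of 118 genes named by rule and called, 79 were called after quantile normalization, 77 with median centring and 85 with each of the 6 arrays left out. The 24 largest changes were named only if called after quantile normalization, so their part of the 79 was fixed beforehand. Of the 94 named from lists, 55 were called after quantile normalization. Genes named after their values were seen are not among the 118. Signals near 0 have no reliable fold.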

Other observations

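Some genes outside the comparisons above stood well apart. Rpl22, a ribosomal protein gene, rose from 589 ± 109 in littermates to 1234 ± 83.6 in M-off (log2 change 1.06, adjusted p = 0.00212 by limma), with 0.21 and no call on its other probe set. Of 43 cytosolic ribosome genes 1 was higher (2.33%) and 3 were lower (6.98%), beside 3.99% and 22.4% over all genes. Cpox, an enzyme of heme synthesis, rose by 0.98 (adjusted p = 0.00286), with 0.25 and no call on its other probe set. Fth1, the ferritin heavy chain gene, read 5746 ± 294 in M-off and 9802 ± 337 in littermates, a change of -0.77, but its second probe set changed by -0.10. Of 44 growth hormone and sex-biased genes 2 were higher (4.55%, near the 3.99% of all genes) and 2 lower (4.55%, under the 22.4% of all genes). Of 38 matrix and metalloproteinase genes 2 were higher (5.26%, beside 3.99% over all genes) and 11 lower (28.9%, beside 22.4%) on the deposited scale. This list is dim, with a median signal of 46.3, and 44.9% of all genes at signals of 16 to 50 were lower. After quantile normalization 4 were higher and 4 lower, beside 4.52% and 8.51% over all genes.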
